A study of Mus musculus with 5 samples.

Results

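The 9 complement genes described here, C1qa, C1qb, C1qc, C3, C4b, Cfp, C3ar1, C5ar1 and Itgam, were picked by symbol from a table of 21983 genes. Counts of RNA-seq reads were compared between 2 libraries of primary microglia from mouse brain labelled Cx3cr1CreERT2 Ythdf2fl/fl (labelled knockout 1 and 2) and 3 labelled Ythdf2fl/fl (controls 1 to 3). Both genotypes carry loxP-flanked Ythdf2 alleles, and Ythdf2 encodes a reader protein that leads mRNAs bearing N6-methyladenosine to decay. The first genotype adds a Cre recombinase that tamoxifen switches on, made from the Cx3cr1 locus, which other brain macrophages and monocytes use as well. The labels used here give no age, sex or tamoxifen schedule, and no label ties a library to an animal or a culture, so the p-values speak to variation among these 5 samples, part or all of which may be technical.

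Complement is a defence system in which secreted proteins tag cells, debris and synapses for removal by phagocytes. The classical route starts with C1q, a bundle of A, B and C chains encoded by C1qa, C1qb and C1qc, and runs through C4 to C3. The alternative route feeds back on C3 and is stabilised by properdin, the product of Cfp. Fragments of C3 and C5 then signal through the receptors encoded by C3ar1 and C5ar1, and C3-coated targets are bound by complement receptor 3, whose alpha chain is encoded by Itgam. In the brain, microglia, the resident macrophages, are known as the main source of C1q.

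Library totals ran from 13947500 to 19577217 counts, and no 2 libraries agreed within sampling noise. Ythdf2 was at 103.5 and 127 CPM (counts per 1000000, scaled to each library's size) in the labelled knockout libraries, against 57, 69.2 and 68.8 CPM in controls. The gene named in the label was thus not lower there but above every control (log2 fold change 0.83, edgeR adjusted p = 0.431). Cx3cr1, whose locus carries Cre in the first genotype, was at 337 and 97.7 CPM in the labelled knockout libraries, against 682, 992 and 681 CPM in controls, below every control (log2 fold change -1.85, edgeR adjusted p = 0.575). Reads outside the deleted part of the gene are counted too, so the Ythdf2 level does not test the deletion, and every direction below is drawn from the labels. Of 10 microglia markers, 9 could be tested, and their summed level was 963 and 807 CPM in the labelled knockout libraries, against 2385 to 3043 CPM in controls. In 4 of the 9, among them Cx3cr1 itself, both labelled knockout libraries lay below every control (10.4% of all genes tested). In 2, P2ry12 and Tmem119, they lay above (9.85% of all genes tested). The tenth, Trem2, is listed at 0 in every library. In bulk RNA, fewer cells of a type and less RNA per cell cannot be told apart.

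None of the 9 genes passed the test between the groups, although several differed 3-fold or more between the 2 labelled knockout libraries. All 9 passed the filter on low counts. By edgeR's quasi-likelihood test 0 of the 9 had an adjusted p under 0.05, as did 0% of the 12543 genes tested. At an unadjusted p under 0.05 edgeR also counted 0 of the 9, against 6.68% of all genes. DESeq2 called 0 of the 9 and 1.68% of all genes, and limma-voom 0 of the 9 and 0%. The log2 fold change (labelled knockout over control) was positive in 2 of the 9 and negative in 7, with a median of -0.06, beside a median of 0.01 over all genes tested. The labelled knockout libraries were jointly above every control in 0 of the 9 genes (9.85% of all genes) and below every control in 1 of the 9 (10.4% of all genes). Separation in either direction was thus found in 1 of the 9, where 20.3% of all genes showed it.

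**Figure D1:**
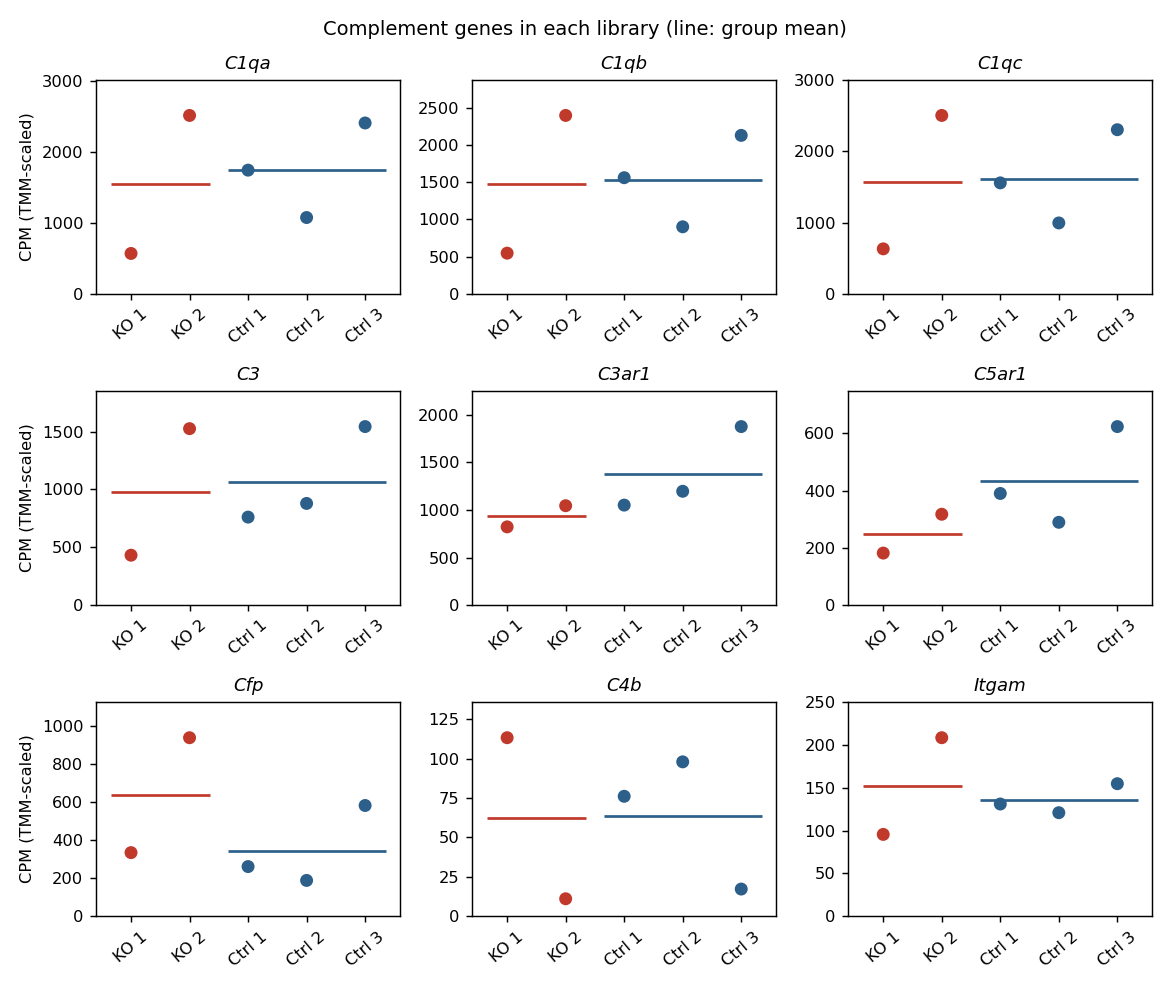
Each panel gives 1 gene in CPM (vertical axis, from 0) in the labelled knockout libraries (KO 1 and KO 2, red) and the controls (Ctrl 1 to 3, blue), with a line at each group's mean. For the C1q genes and C3, KO 1 is the lowest library, while KO 2 lies near or above Ctrl 3. C4b runs the other way, with KO 1 highest and KO 2 lowest.

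The genes of the C1q chains lie side by side on the minus strand of chromosome 4 (GRCm38, GENCODE M21): C1qb at 136880129 to 136886187, C1qc at 136889804 to 136893065 and C1qa at 136895917 to 136898803. No exon of another annotated gene overlaps theirs. Stretches just upstream of transcription starts are shown for C1qb and C1qc, whose levels moved together, for C3, which moved in part with them, and for Itgam, which had the same highest and lowest library. They come from RefSeq (GRCm38.p6), where 7 of the 9 genes matched by symbol. Each is written 5′ to 3′ on the strand of its gene, and only as far as the first annotated exon of that gene in GENCODE. Capitals mark matches on either strand to GAGGAA, the core of the PU.1 site of macrophage genes, or to TTGCNNAA, a C/EBP site.
C1qb, chr4:136886201-136886450, minus strand: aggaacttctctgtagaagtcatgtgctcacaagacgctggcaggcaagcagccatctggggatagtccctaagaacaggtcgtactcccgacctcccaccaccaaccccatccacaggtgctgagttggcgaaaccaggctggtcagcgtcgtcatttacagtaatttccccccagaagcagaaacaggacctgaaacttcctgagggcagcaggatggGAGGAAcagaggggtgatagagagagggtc
C1qc, chr4:136893066-136893164, minus strand: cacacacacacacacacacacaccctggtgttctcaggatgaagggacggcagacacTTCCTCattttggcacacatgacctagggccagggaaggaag
C3, chr17:57228137-57228386, minus strand: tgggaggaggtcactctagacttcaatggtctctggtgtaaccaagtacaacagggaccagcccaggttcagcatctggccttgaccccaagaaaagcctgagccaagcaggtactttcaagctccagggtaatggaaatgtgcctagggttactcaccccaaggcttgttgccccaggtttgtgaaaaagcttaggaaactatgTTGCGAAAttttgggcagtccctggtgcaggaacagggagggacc
Itgam, chr7:128062390-128062639, plus strand: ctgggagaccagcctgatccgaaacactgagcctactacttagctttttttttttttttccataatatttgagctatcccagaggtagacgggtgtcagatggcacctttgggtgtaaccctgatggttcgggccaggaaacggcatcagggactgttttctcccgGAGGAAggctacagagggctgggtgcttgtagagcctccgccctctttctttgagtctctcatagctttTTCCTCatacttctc

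In the full 250 bases upstream, GAGGAA occurred once in C1qb, once in C1qc and 2 times in Itgam, and in none of the stretches of C3, C3ar1, C5ar1 and Cfp. Of 32851 RefSeq promoters of the same length, 23.3% hold it. The C/EBP letters were found in C3 alone of the 7, against 9.56% of promoters. An AP-1 site, TGANTCA, was found in C3ar1 alone (6.75% of promoters), and GAAANNGAA, a site of interferon regulatory factors, in C5ar1 alone (7.13%). Only the first 48 of the 250 bases of C5ar1 lie before its first GENCODE exon, and the match lies past them, within the annotated gene. These motifs do not overlap each other in the stretches shown. A match is a description of letters, and binding was not measured.

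C1q, the recognition molecule of the classical route, was the most abundant complement component. C1qa stood at 569.6 and 2509 CPM in the labelled knockout libraries 1 and 2, against 1740.5, 1074 and 2403 CPM in controls 1 to 3. Labelled knockout 1 was thus the lowest of the 5 libraries and labelled knockout 2 the highest, and the groups overlapped. C1qb stood at 548 and 2396 CPM in the labelled knockout libraries, against 1561, 902 and 2129 CPM in controls. C1qc stood at 633 and 2505 CPM there, against 1559, 997 and 2305 CPM in controls. The order of the libraries was identical in all 3 genes: labelled knockout 1, control 2, control 1, control 3, labelled knockout 2.

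Group means differed little beside this spread. C1qa averaged 1539 ± 1371 CPM in labelled knockout libraries (SD, n = 2) and 1739 ± 664 CPM in controls (SD, n = 3). Its log2 fold change was -0.18 (SE 0.675, 95% interval -1.84 to 1.49), with an edgeR adjusted p = 0.979. The log2 fold change was -0.06 for C1qb (SE 0.679) and -0.05 for C1qc (SE 0.649), with edgeR adjusted p = 0.99 and 0.991. The 95% intervals were -1.73 to 1.62 and -1.65 to 1.56, so for all 3 genes a 2-fold difference in either direction was not excluded. With labelled knockout 1 left out, the log2 fold changes became 0.50 for C1qa, 0.62 for C1qb and 0.60 for C1qc, and with labelled knockout 2 left out -1.61, -1.48 and -1.36. Without control 3 they also turned positive, at 0.13, 0.26 and 0.29.

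Between the 2 labelled knockout libraries, C1qa differed 4.41-fold, C1qb 4.37-fold and C1qc 3.96-fold, while the median gene differed 1.53-fold. Among the 9 complement genes 5 differed more than 3-fold between these libraries, and among all genes tested 16.3% did. The highest control exceeded the lowest 2.24-fold for C1qa, 2.36-fold for C1qb and 2.31-fold for C1qc. In 4 of the 9 genes (C1qa, C1qb, C1qc and Itgam) labelled knockout 1 was the lowest of the 5 and labelled knockout 2 the highest, an order that 10.1% of all genes had; this pattern was picked out after the values were seen. Together the C1q genes took 0.187% and 0.70% of all counts in the labelled knockout libraries, against 0.497%, 0.298% and 0.659% in controls. The summed level of 8 genes that all macrophages use, all tested and none at 0 in either group, was 4546 and 9072 CPM in the labelled knockout libraries, against 7695, 7408 and 8317 CPM in controls. The sum too was lowest in labelled knockout 1 and highest in labelled knockout 2, over a narrower range, but 0 of the 8 genes had both of these extremes. Between the labelled knockout libraries, Ctss differed 5.92-fold, Tyrobp 5.86-fold and Aif1 4.46-fold, each more than C1qa. The rest of the 8 ranged from 1.31-fold (Csf1r, the most abundant) to 3.19-fold (Fcer1g). Relative to the sum of the 8 genes, C1q stood at 0.385 and 0.817 in the labelled knockout libraries, against 0.632, 0.401 and 0.822 in controls. The part of these genes in the values of C1q was not tested.

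The 3 chains kept nearly the same proportion in every library. Per kilobase of exon, the ratio of C1qa to C1qb was 1.09 and 1.10 in the labelled knockout libraries, against 1.17, 1.25 and 1.18 in controls. The ratio of C1qc to C1qb was 0.651 and 0.589 in the labelled knockout libraries, against 0.563, 0.623 and 0.610 in controls. So while the level of C1qa ranged over more than 4-fold, its ratio to C1qb ranged over 1.15-fold. The C1qa to C1qb ratio was the lower one in both labelled knockout libraries, and so was that of C1qa to C1qc, at 1.67 and 1.86 against 2.07, 2.0 and 1.94 in controls. These were 2 of 3 ratios without overlap among 8 computed, and the share over other pairs of genes was not counted. With 2 libraries against 3, an exact two-sided rank test cannot give a p below 0.2.

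**Figure D2:**
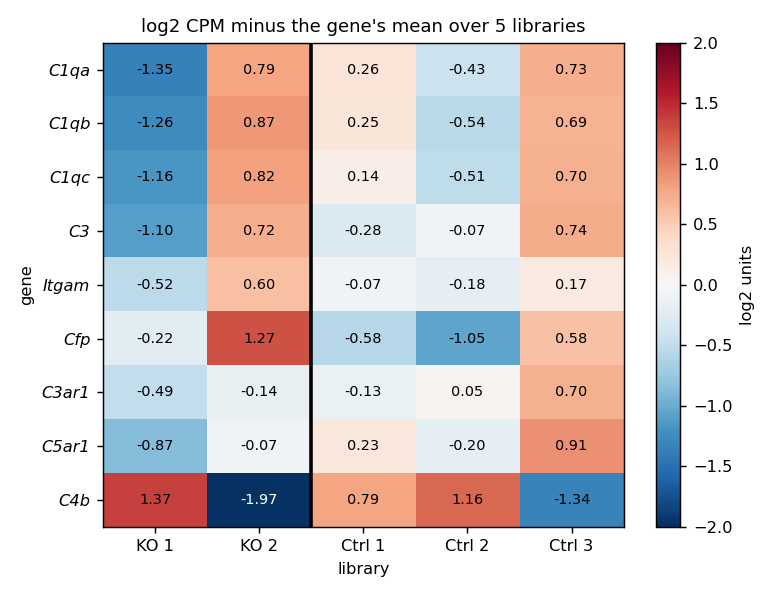
Rows are the 9 genes and columns the libraries, labelled knockout (KO) left of the black line and controls (Ctrl) right of it; each cell gives log2 CPM minus that gene's mean over the 5 libraries, in log2 units. C1qa, C1qb and C1qc show the same row pattern, from -1.35 in KO 1 to 0.79 in KO 2 for C1qa, and C4b shows 1.37 in KO 1 and -1.97 in KO 2.

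YTHDF2 binds transcripts that carry N6-methyladenosine, a mark often laid at GGACT, and the sites with these letters in the C1q transcripts are shown because the series concerns that reader. GGACT was counted in the longest coding transcript of each gene, on its own strand. Written 5′ to 3′ with the letters searched in capitals, the C1q sites on chromosome 4 (minus strand, GRCm38, GENCODE M21) read as follows.
C1qa site 1, chr4:136896699-136896723, coding sequence: gctggcatccGGACTggtatccgag
C1qa site 2, chr4:136896586-136896610, coding sequence: cggcccccaaGGACTgaagggcgtg
C1qa site 3, chr4:136895980-136896004, 3′ UTR: agggcactgaGGACTgatgtttctg
C1qb site 1, chr4:136880847-136882128, coding sequence across a splice junction: agggctccctGGACTggctggagac
C1qb site 2, chr4:136880792-136880816, coding sequence: gggatccctgGGACTccaggcaaag
C1qb site 3, chr4:136880701-136880725, coding sequence: gcgattctggGGACTacggggctac
C1qc site 1, chr4:136892515-136892539, coding sequence: gcctccatgtGGACTttgcctgctg
C1qc site 2, chr4:136892392-136892416, coding sequence: cgggcatgatGGACTccaggggccc

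C1qa and C1qb held 2.88 and 2.76 sites per kilobase, C1qc 1.66 and C4b 1.49. The other 5 genes held 0.611 to 0.929 per kilobase, and the median over 12494 genes was 1.05. The C1q transcripts are short. Of 576 transcripts of 1000 to 1300 bases 78.1% held at least 1 site, 45.7% at least 2 and 22.9% at least 3. The mark itself was not measured, so these are matches of letters only.

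C3, the central component on which all routes converge, varied in part with C1q. It stood at 431 and 1525 CPM in the labelled knockout libraries, against 761, 879 and 1543 CPM in controls. Labelled knockout 1 was again the lowest, and labelled knockout 2 lay just below control 3, the highest. C3 averaged 978 ± 774 CPM in labelled knockout libraries and 1061 ± 422 CPM in controls (SD, n = 2 and 3). Its log2 fold change was -0.12 (SE 0.601; edgeR adjusted p = 0.982). The value was 0.50 with labelled knockout 1 left out, -1.30 with labelled knockout 2 left out, and 0.25 with control 3 left out. C3 lies on the minus strand of chromosome 17 at 57203970 to 57228136, free of exons of other annotated genes.

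Cfp encodes properdin, the one known positive regulator of the alternative route, and it had the most positive log2 fold change of the 9. It stood at 335 and 940.2 CPM in the labelled knockout libraries, against 262, 189 and 583 CPM in controls. Control 3 lay between the labelled knockout libraries, so the groups overlapped. The log2 fold change of 0.89 (SE 0.622, 95% interval -0.65 to 2.42) had an edgeR adjusted p = 0.905. It rested on the second library: without labelled knockout 2 the log2 fold change was -0.04, and without control 3 it was 1.5. Relative to C1qb, per kilobase, Cfp stood at 0.383 and 0.246 in the labelled knockout libraries, against 0.105, 0.131 and 0.172 in controls, which is the third of the ratios without overlap. Border-associated macrophages lie at the surfaces of the brain, and the summed level of 8 of their markers was 651 and 2238 CPM in the labelled knockout libraries, against 779.6, 614 and 1731 CPM in controls. All 8 were tested and none is at 0 in either group. The libraries with the most Cfp, labelled knockout 2 and control 3, were also those with the highest sum and were the highest in 5 of the 8 markers. The other 3, Pf4, Lyve1 and F13a1, did not follow Cfp, and F13a1 was at 79.1 and 185 CPM in the labelled knockout libraries, against 29.9, 47.0 and 23.9 CPM in controls. Labelled knockout 2 and control 3 were also the highest libraries for C1qa, C1qb, C1qc, C3 and Itgam, and for the summed macrophage genes. This order was thus not particular to Cfp, and the share of all genes with it was not counted. The part of the border-associated macrophage markers in the values of Cfp was not tested. Cfp lies on the minus strand of chromosome X at 20925454 to 20931555.

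C4b, which encodes the C4 protein that the classical route cleaves before C3, ran against C1q and C3. It stood at 113 and 11.1 CPM in the labelled knockout libraries, against 76.1, 97.9 and 17.2 CPM in controls. Labelled knockout 1, lowest for C1q and C3, was the highest for C4b, and labelled knockout 2 was the lowest. The groups overlapped fully, with a log2 fold change of -0.04 (SE 1.04, 95% interval -2.61 to 2.54; edgeR adjusted p = 0.994). Leaving out labelled knockout 1 gave -2.55, and leaving out labelled knockout 2 gave 0.83. Without control 1 it was 0.12, without control 2 it was 0.41, and without control 3 it was -0.48. The ratio of C4b to C3 per kilobase was 0.237 and 0.00656 in the labelled knockout libraries, against 0.0903, 0.101 and 0.0101 in controls, a span of 36.1-fold over the 5 libraries.

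Oligodendrocyte-lineage markers varied in part alongside C4b. The summed level of 9 of them was 12407 and 4588 CPM in the labelled knockout libraries, against 10641, 9611 and 1282 CPM in controls. All 9 were tested and none is at 0 in either group. The libraries low in C4b, labelled knockout 2 and control 3, were the lowest in each of these 9 markers too. Between these libraries the sum was higher in labelled knockout 2, while C4b was higher in control 3. For 9 astrocyte markers, none at 0 in either group, the sum was 138 and 103 CPM in the labelled knockout libraries, against 244, 120.4 and 52.0 CPM in controls. Most of that sum was S100b, and labelled knockout 2 and control 3 were the lowest in 4 of the 9 astrocyte markers; Aldh1l1 and Aldoc were highest in labelled knockout 2 or control 3. For 9 fibroblast and mural cell markers, of which 7 were tested, it was 34.8 and 15.6 CPM in the labelled knockout libraries, where Lum and Rgs5 are at 0, against 128, 122 and 41.1 CPM in controls. This sum did not follow C4b, since labelled knockout 1, highest for C4b, lay below control 3. Of 9 neuron markers 5 were tested, and Slc17a7 is at 0 in the labelled knockout libraries. The sum of the 9 was 175 and 45.6 CPM there, against 72.3, 68.6 and 27.9 CPM in controls. As for C4b, labelled knockout 1 was the highest, and labelled knockout 2 and control 3 were the lowest. This order was thus not particular to the oligodendrocyte lineage, and the share of all genes with it was not counted. The part of these cells in the values of C4b was not tested. C4b lies on the minus strand of chromosome 17 at 34728380 to 34743882, and 16.5% of the 100-base windows of its transcript occur unchanged in its paralog C4a, so its count is uncertain where reads fall in these windows; C4a was not analysed here.

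**Figure D3:**
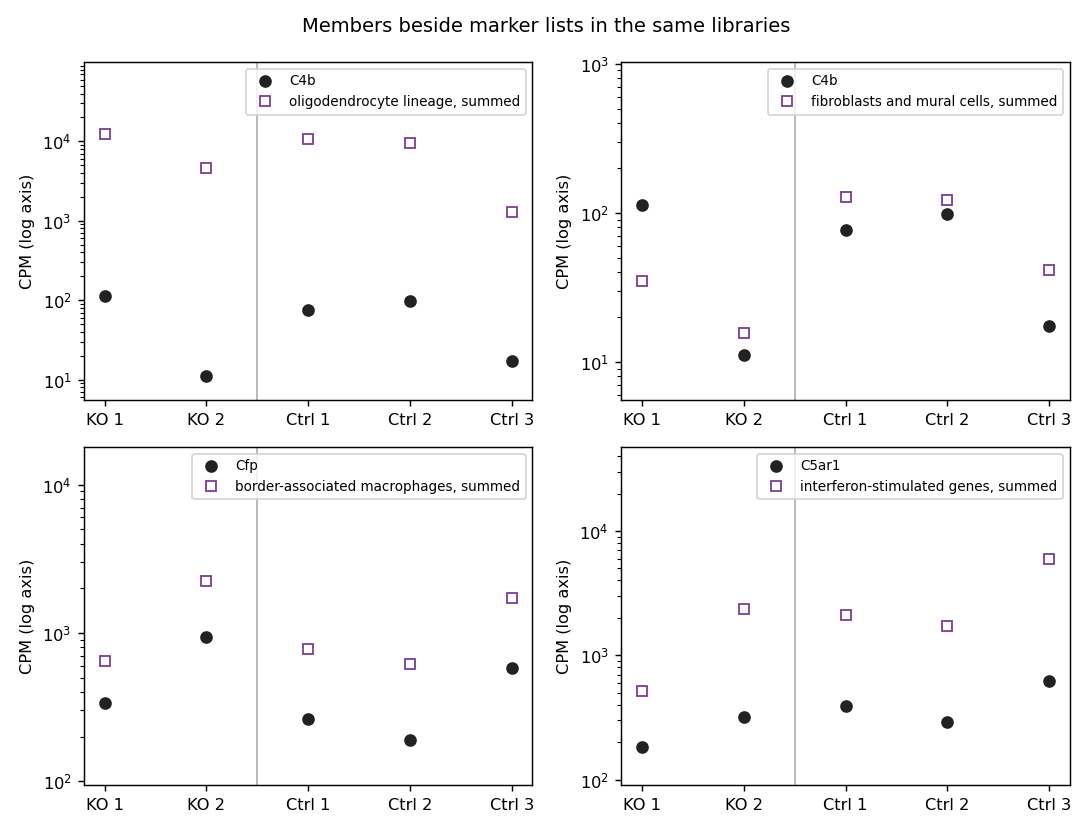
Each panel sets 1 gene (black circles) beside the summed CPM of a marker list (purple squares) in the same libraries, on a logarithmic axis in CPM, with labelled knockout (KO) left of the grey line and controls (Ctrl) right of it. C4b and the oligodendrocyte list are both low in KO 2 and Ctrl 3, the fibroblast and mural cell list is lower in KO 1 than in Ctrl 3 where C4b is higher, Cfp and the border-associated macrophage list are both highest in KO 2, and C5ar1 and the interferon list are both lowest in KO 1 and highest in Ctrl 3.

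Among the receptors, the genes for the anaphylatoxin receptors had the most negative log2 fold changes of the 9. C3ar1, the receptor gene for the C3a fragment, stood at 822 and 1045 CPM in the labelled knockout libraries, against 1051, 1196 and 1877 CPM in controls. It was the 1 gene of the 9 in which both labelled knockout libraries lay below every control, with a gap of a few CPM between labelled knockout 2 and control 1. C3ar1 averaged 934 ± 157 CPM in labelled knockout libraries and 1375 ± 441 CPM in controls (SD, n = 2 and 3). The log2 fold change of -0.56 (SE 0.353, 95% interval -1.43 to 0.31) had an edgeR adjusted p = 0.880. The value was -0.27 without control 3 and -0.74 without labelled knockout 2. Scaled to the 8 macrophage genes, the separation was lost: C3ar1 stood at 181 and 115 counts per 1000 counts of those genes in the labelled knockout libraries, against 137, 162 and 226 in controls. C3ar1 lies on the minus strand of chromosome 6 at 122847138 to 122856161.

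C5ar1, the receptor gene for C5a, stood at 182 and 317 CPM in the labelled knockout libraries, against 389.7, 289 and 623 CPM in controls. Control 2 lay below labelled knockout 2, so the groups overlapped. The means were 249 ± 95.8 CPM in labelled knockout libraries and 434 ± 171 CPM in controls (SD, n = 2 and 3), which is -0.80 on the log2 scale (SE 0.426, 95% interval -1.85 to 0.25), with an edgeR adjusted p = 0.868. The value was negative in each fit that left out 1 library, from -1.26 without labelled knockout 2 to -0.44 without control 3. The summed level of 12 interferon-stimulated genes, all tested and none at 0 in either group, was 519 and 2351 CPM in the labelled knockout libraries, against 2107, 1715 and 5912 CPM in controls. Each of the 12 was lowest in labelled knockout 1 and highest in control 3, as C5ar1 was. C3 and C3ar1 had the same lowest and highest library, so this order was not particular to C5ar1. The share of all genes with it was not counted, and the part of the interferon-stimulated genes was not tested. C5ar1 lies on the minus strand of chromosome 7 at 16246743 to 16259540.

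Itgam, the gene for the CD11b chain of complement receptor 3, stood at 95.6 and 209 CPM in the labelled knockout libraries, against 131, 121 and 155 CPM in controls. The labelled knockout libraries were the lowest and the highest of the 5, on either side of a narrow control range (1.28-fold). Its log2 fold change was 0.17 (SE 0.357; edgeR adjusted p = 0.953), 0.59 without labelled knockout 1 and -0.51 when labelled knockout 2 was left out. Scaled to the macrophage genes, Itgam stood at 21.0 and 23.0 counts per 1000 in the labelled knockout libraries, against 17.0, 16.3 and 18.6 in controls, and the groups no longer overlapped. Under that scaling, which moved the median log2 fold change of all genes to 0.34, 11.5% of all genes tested lay above every control and 3.75% below. Of the 9 genes, Cfp was the other one above every control, at 73.7 and 103.6 in the labelled knockout libraries against 34.0, 25.5 and 70.1 in controls, and none of the 9 lay below every control. Itgam lies on the plus strand of chromosome 7 at 128062640 to 128118491, and 71.0% of the 100-base windows of its transcript are shared with Gm49368, a gene annotated on the same strand, so its count depends on how such reads were assigned.

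**Figure D4:**
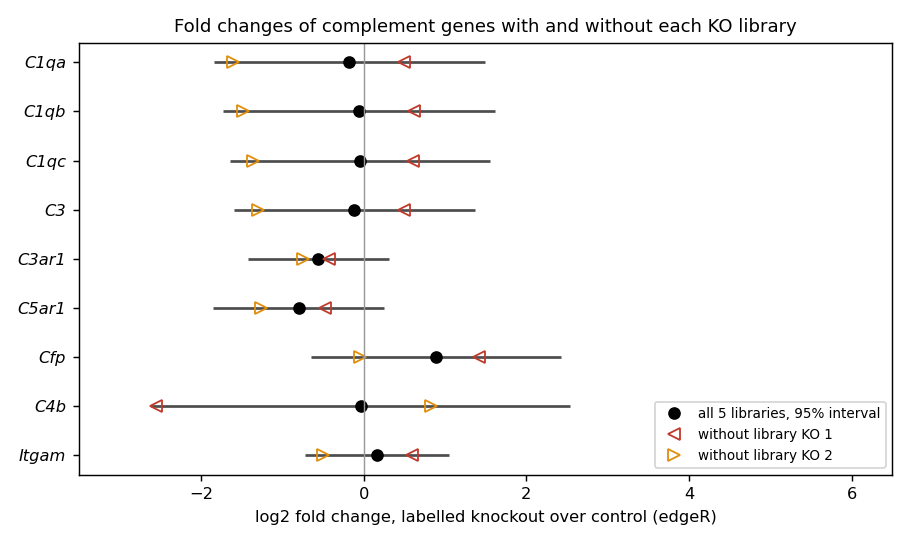
Log2 fold change of labelled knockout over control (horizontal axis, edgeR) for the 9 genes: black points and lines give the value and its 95% interval with all 5 libraries, triangles the value without library KO 1 (red) or KO 2 (orange). Every interval spans 0, and the triangles lie on opposite sides of 0 for C1qa, C1qb, C1qc, C3, Cfp, C4b and Itgam, while both lie below 0 for C3ar1 and C5ar1.

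Levels of different genes were compared per kilobase of exon, averaged over the 5 libraries (SD, n = 5). C1qa, at 1596 ± 806 CPM per kilobase, C1qb, at 1385 ± 722, and C1qc, at 828 ± 419, were the highest. C1qc comes to 1330 on the length of its longest coding transcript, so the order within C1q depends on the length used. C3ar1 (278 ± 93.4), Cfp (266 ± 176) and C3 (199.9 ± 95.4) followed with overlapping ranges, then C5ar1 at 140.1 ± 64.2 CPM per kilobase. Itgam, at 28.3 ± 8.51, and C4b, at 11.1 ± 8.19, were the lowest, and the range of Itgam, 19.0 to 41.5, overlapped the top of that of C4b, 1.95 to 19.9 CPM per kilobase. Both share transcript windows with another gene (71.0% for Itgam, 16.5% for C4b), so their place in this ranking depends on how such reads were assigned.

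The likeness of profiles was measured as the root mean square difference between log2 CPM values, each centred on its gene's mean over the 5 libraries. Within the set, C1qb and C1qc (0.0714 log2 units) and C1qa and C1qb (0.0730) were the most alike, and Cfp and C4b (2.17) the least. C3 was nearest to C1qc (0.276), and C3ar1 to C5ar1 (0.280). Of 8523 genes with a mean of at least 10 CPM, those nearest to C1qa were C1qb, Isoc2a and Ggh (0.0730 to 0.102). The gene nearest to C1qb was Isoc2a (0.0460), ahead of C1qc (0.0714) and C1qa (0.0730). Those nearest to C1qc were C1qb, Il3ra and Ctsh (0.0714 to 0.0876). C3 was nearest to Slc35f5, Cd22 and Birc3 (0.135 to 0.160), Cfp to Cd200r4, Smpdl3a and Tmem273 (0.172 to 0.203), and Itgam to Zfp787, Pim1 and Ubtd1 (0.0589 to 0.0655). C3ar1 was nearest to Nptn, Fyb and Kansl1l (0.0581 to 0.0720), and C5ar1 to Pxk, Pnpt1 and Nfu1 (0.0653 to 0.0780). C4b had no close match, its nearest being Slc4a8 (0.312), the collagen VI chain gene Col6a2 (0.338) and Hspg2 (0.377), which encodes the matrix proteoglycan perlecan. With 5 libraries these are descriptions of the samples.

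In the rest of the pathway, 49 further genes were in the table, of which 24 passed the filter on low counts. Of the 24, edgeR, DESeq2 and limma-voom each called 0, and 12 had positive and 12 negative log2 fold changes, with a median of -0.05. At an unadjusted p under 0.05 edgeR counted 2 higher (3.99% of all genes were) and 2 lower (2.69% of all genes). Both labelled knockout libraries lay above every control in 3 of the 24 (9.85% of all genes) and below every control in 2 (10.4% of all genes). Of the 25 not tested, 10 had no count in any library, among them Cfd, the protease gene of the alternative route, and C7, C8a, C8b and C9, which encode parts of the membrane attack complex. C8g was the 1 of 7 terminal genes tested.

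The 4 genes with an unadjusted p under 0.05 were all of low abundance. Clu, the gene of clusterin, a fluid-phase inhibitor of the terminal complex, stood at 9.40 and 10.2 CPM in the labelled knockout libraries, against 4.15, 1.33 and 2.38 CPM in controls, with a log2 fold change of 1.90 (SE 0.510) and an edgeR adjusted p = 0.484 (DESeq2 adjusted p = 0.0584). The summed level of 7 markers of the choroid plexus epithelium, all tested, was 558 and 341 CPM in the labelled knockout libraries, against 181, 213 and 59.8 CPM in controls. Both labelled knockout libraries lay above every control in 6 of these 7, as for Clu and for 9.85% of all genes tested. The part of these markers in the value of Clu was not tested. C1s1, a protease gene of the C1 complex, had 0.773 and 1.35 CPM in the labelled knockout libraries, against 0.314, 0.253 and 0.149 CPM in controls (edgeR adjusted p = 0.575). The antisense gene Gm16567 overlaps its exons on the other strand, and the sources used here give no strand setting for the counting. Masp1, a protease gene of the lectin route, had 7.79 and 5.30 CPM in the labelled knockout libraries, against 11.1, 14.6 and 13.4 CPM in controls, with a log2 fold change of -0.99 (SE 0.337) and an edgeR adjusted p = 0.649. Sez6l2, whose protein can restrain the C3 convertase, had 2.14 and 0.865 CPM in the labelled knockout libraries, against 3.27, 4.37 and 4.39 CPM in controls (edgeR adjusted p = 0.702).

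Of the other pathway genes, receptors led by abundance per kilobase. Itgb2, the beta chain gene that pairs with Itgam, stood at 581 and 1266 CPM in the labelled knockout libraries, against 1280.1, 1191 and 863 CPM in controls. Lrp1, a scavenger receptor gene whose protein binds C1q, had 8630 and 4253 CPM in the labelled knockout libraries, against 4167, 6169.7 and 4740 CPM in controls. Both overlapped between groups. Calr, a chaperone gene whose surface protein also binds C1q, had 861 and 852 CPM in the labelled knockout libraries, against 664, 619.6 and 705 CPM in controls. Both libraries lay above every control, as for 9.85% of all genes tested (log2 fold change 0.37, edgeR adjusted p = 0.877). Cd93, first described as a C1q receptor, had 419 and 731 CPM in the labelled knockout libraries, against 144, 176 and 422 CPM in controls (log2 fold change 1.22, edgeR adjusted p = 0.778). The groups overlapped for Cd93, and also for C1ra, Fcna, Itgax, C1qbp and Vsig4, the last 5 with edgeR adjusted p of 0.874 to 0.992.

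**Figure D5:**
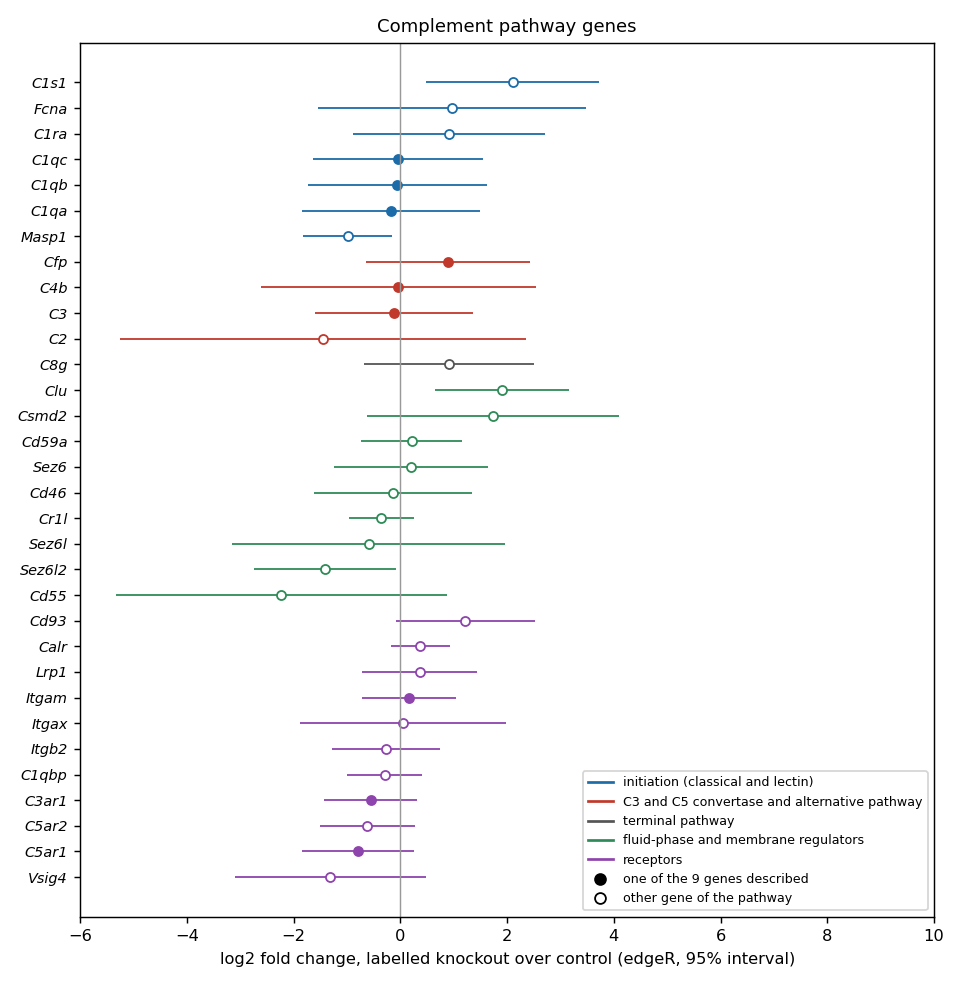
Log2 fold change of labelled knockout over control (horizontal axis, edgeR) with its 95% interval for complement genes that passed the filter on low counts, coloured by step of the pathway, with filled points for the 9 genes described and open points for the others. The intervals of Clu, C1s1, Masp1 and Sez6l2 do not span 0, and none of these 4 passed adjustment over all genes.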

How the data were processed

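RNA-seq of primary mouse brain microglia gave 5 libraries. The authors deposited a table of counts, whole numbers that show no sign of normalization, with 1 row per gene symbol. FastQC, STAR, HTSeq and mm10 appear per the submitters' processing notes, with versions, annotation and strand setting not given in the sources used here. Groups and library numbers came from sample titles, where the title of control 3 carries a second number, 2.

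Of 21983 genes, 15981 had a count and 12543 passed filterByExpr. Groups were compared with the two-sided quasi-likelihood test of edgeR 4.0.16 in R 4.3.3 (TMM scaling, robust estimation, 3 residual degrees of freedom). Adjustment was by Benjamini-Hochberg over all genes tested, with a threshold of 0.05. DESeq2 1.42.0, limma-voom (limma 3.58.1), other scalings and filters, a replicate block and leaving out each library were the alternatives. Library sizes for CPM were scaled by TMM, and a prior count of 2 was added for log2 CPM. Counts per kilobase use merged exons of GENCODE M21 (GRCm38), which matched 12510 of the genes tested. The scripts were tested on simulated data.

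The 9 genes, the pathway and marker lists and the naming rule were chosen with earlier results of these data known. Of other pathway genes, those with an unadjusted edgeR p under 0.05 or a DESeq2 call and the 10 most abundant per kilobase were named, and for each of the 9 genes the 3 genes with the nearest profile and no provisional symbol. One gene that the rule names is not reported here.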

Additional observations from a re-analysis of the deposited data

How the results depend on the processing

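No complement gene of the 9, and none of the 24 others tested, was called in the main edgeR fit or in any of the 17 alternatives. Over all genes edgeR called 0 (838 at an unadjusted p under 0.05) and limma-voom 0, DESeq2 called 232, and edgeR with a replicate block called 4. These 4, named after their values were seen, were Postn, Ctgf, Atp2a3 and Arg1. In the fit with the replicate block, control 3 was alone in its number and so did not inform the group difference. No label says that a library number marks a shared animal, litter or day. Deviations from the group means correlated at 0.148 for the libraries numbered 1 and -0.562 for those numbered 2. With 2 labelled knockout libraries their deviations mirror each other, so these values cannot decide whether libraries of the same number share an origin. C3ar1 and C5ar1 stayed negative in all 17 alternatives, at -0.74 to -0.24 and -1.26 to -0.44 on the log2 scale. With each library left out in turn, the log2 fold change ranged from -1.61 to 0.50 for C1qa, -1.48 to 0.62 for C1qb, -1.36 to 0.60 for C1qc, -1.30 to 0.50 for C3, -2.55 to 0.83 for C4b, -0.040 to 1.5 for Cfp and -0.51 to 0.59 for Itgam. C1qc also turned positive with the replicate block (0.015) and with libraries scaled to macrophage genes (0.021), and C4b with library totals (0.031) and with that macrophage scaling (0.63), which moved the median of all genes to 0.34. The cause of these changes of sign was not tested. With 2 libraries against 3, the width of the intervals limits what could be detected.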
